A study of Homo sapiens with 33 samples.

Results

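Polycomb repressive complex 2 (PRC2) has 6 core subunit genes, and their transcripts and promoters were described here in human embryonic stem cells (ESCs) that had lost EZH2. The members were taken by name: *EZH2* and *EZH1*, *EED*, *SUZ12*, *RBBP4* and *RBBP7*. They are 6 of the 35805 genes in the RNA-seq table, and all 6 are also among the 35683 gene names of the ChIP-seq table, where they hold 69 of 153958 windows around start sites. The cells were H9, a human ESC line, and their RNA came from SSEA4-positive cells sorted by flow cytometry, with 3 libraries for each of 4 genotypes. *EZH2*+/+ (wild-type) was the parental line. *EZH2*-/+ (heterozygous) was a clone with 1 allele disrupted by Cas9 in an early exon. *EZH2*-/- (null) ESCs were derived from the heterozygous line after it had received a piggyBac *EZH2* coding sequence under doxycycline (DOX) control, and they were then kept without DOX. *EZH2*-/-+*EZH2* (restored) were the same cells given DOX to switch the transgene on. So null and restored ESCs share a derivation and the integrated transgene, which the other genotypes lack, and a difference of both from wild-type ESCs cannot be told apart from one between lines. Histone H3K27me3, H3K4me3, H3K27ac, H3K4me1 and input chromatin were profiled in all 4 genotypes and EZH2 occupancy in *EZH2*+/+ ESCs alone.

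PRC2 places methyl groups on lysine 27 of histone H3, a mark found at silent developmental genes. EZH2 and its paralog EZH1 are alternative catalytic subunits. EED binds trimethylated H3K27 and stimulates the enzyme, SUZ12 holds the complex together, and the histone-binding proteins RBBP4 and RBBP7 are also parts of other chromatin complexes such as NuRD, SIN3 and, for RBBP4, the histone chaperone CAF-1. EZH2 is the form that dominates in dividing cells, and EZH1 is known for its expression in cells that have left the cycle.

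Because chromatin at the members' own promoters separated *EZH1* from its paralog, their promoter sequences are given side by side, with that of *RBBP7*, whose promoter changed in other marks. Each holds 250 bases before the start site and 30 from it on, from RefSeq on GRCh38.p14, read in the direction of transcription. All 6 members had an entry. Capitals mark CCAAT or its reverse ATTGG, and the E2F-type letters TTTGGCGC (reverse GCGCCAAA) or TTTCCCGC (reverse GCGGGAAA).
EZH1, chr17:42745011-42745290, minus strand: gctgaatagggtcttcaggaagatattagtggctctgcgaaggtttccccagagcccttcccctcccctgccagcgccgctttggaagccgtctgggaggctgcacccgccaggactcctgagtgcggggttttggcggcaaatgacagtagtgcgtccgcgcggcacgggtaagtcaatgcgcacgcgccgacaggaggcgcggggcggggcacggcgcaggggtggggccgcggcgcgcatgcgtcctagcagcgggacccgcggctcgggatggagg
EZH2, chr7:148884262-148884541, minus strand: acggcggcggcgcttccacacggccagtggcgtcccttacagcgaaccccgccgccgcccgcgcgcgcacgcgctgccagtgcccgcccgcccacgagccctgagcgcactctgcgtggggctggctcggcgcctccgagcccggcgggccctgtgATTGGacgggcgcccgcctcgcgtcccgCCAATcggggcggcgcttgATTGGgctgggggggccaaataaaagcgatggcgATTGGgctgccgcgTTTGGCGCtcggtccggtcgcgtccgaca
RBBP7, chrX:16870333-16870612, minus strand: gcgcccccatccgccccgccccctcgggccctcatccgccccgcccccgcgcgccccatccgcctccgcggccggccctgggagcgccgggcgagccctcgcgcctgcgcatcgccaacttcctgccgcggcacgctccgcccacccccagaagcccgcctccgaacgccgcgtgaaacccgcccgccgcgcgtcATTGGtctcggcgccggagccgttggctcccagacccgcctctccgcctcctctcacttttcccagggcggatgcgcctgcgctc
The *EZH2* sequence held 4 copies of the CCAAT letters and 1 of TTTGGCGC, whose first base lies at position 2 from the start. The *EZH1* sequence held neither, and that of *RBBP7* held 1 CCAAT copy. Of the members not printed, *RBBP4* had 2 CCAAT copies, *SUZ12* 1 with 1 copy of TTTCCCGC, and *EED* 1. On either strand, CCAAT is in 34.6%, TTTGGCGC in 0.652% and TTTCCCGC in 1.63% of the 35116 RefSeq promoters of 300 bases. A match of letters is a description of the window and shows no bound factor. The number of CpG in 300 bases was 16 at *EED*, 30 at *EZH1* and 40 to 46 at the others, where the median over all promoters was 14.

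RNA levels are given in RPM, which scales the reads on a gene by the total reads of its library. The libraries held 16587860 to 36589089 reads on genes. The genotype check on *EZH2* itself (ENSG00000106462, chromosome 7, 148807383 to 148884321 of GRCh38, minus strand) gave 68.6, 63.3 and 59.5 RPM in wild-type, 55.4, 52.3 and 45.7 in heterozygous, and 11.5, 8.65 and 9.68 in null libraries. The *EZH2*-/-+*EZH2* libraries stood at 271, 385 and 255.6 RPM. No 2 of the 4 genotypes overlapped. In *EZH2*-/- ESCs 326 to 654 reads per library were still on the gene, and counts over the whole gene cannot separate transcripts of disrupted alleles from those of the transgene. The mean of null ESCs was 15.6% and that of restored ESCs 477% of the wild-type mean. ESC markers were present in every genotype: the summed level of 8 pluripotency genes was 3045 to 3878 RPM in wild-type, 3589 to 3876 in null and 3511 to 3743 in restored libraries. In *EZH2*-/- against *EZH2*+/+ ESCs, 5 of these 8 were called higher and 2 lower, beside 12.6% and 18.8% of all genes tested. Of early lineage genes, 3 of 6 for endoderm and 4 of 6 for mesoderm were called higher and the others did not pass, and 2 of 4 ectoderm genes tested were called lower. With the library number as a block in the fit, 5 of 6 endoderm genes were called, beside 45.3% of all genes. The summed mesoderm level was 10.7 to 28.2 RPM in wild-type, 87.6 to 165 in null and 13.2 to 73.2 in restored libraries. Of 5 fibroblast genes tested, 3 were higher and 1 lower, and the summed level of all 6 on that list was 286 to 360 RPM in *EZH2*+/+ and 285 to 528 in *EZH2*-/- libraries. Whether these lineage and fibroblast transcripts came from ESCs or from other cells was not tested here, nor was their part in the values below. The study's single-cell RNA-seq found endoderm or mesoderm genes raised in subsets of sorted *EZH2*-/- ESCs. In bulk RNA, fewer cells of a type and less RNA per cell cannot be told apart.

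*EZH1* transcripts were lower in both *EZH2*-/- and *EZH2*-/-+*EZH2* ESCs than in *EZH2*+/+ ESCs. This cannot be told apart from a difference between lines. The study, by qRT-PCR and western blot, describes *EZH1* transcript and protein as largely unchanged after loss of *EZH2*, which differs from the RNA-seq levels given here. *EZH1* (ENSG00000108799) lies on chromosome 17, 42700275 to 42745049, on the minus strand. It was at 23.4, 33.1 and 25.9 RPM in *EZH2*+/+ libraries, and at 17.6, 19.1 and 25.9 RPM in *EZH2*-/+ libraries. It was at 10.2, 8.54 and 14.01 RPM in null libraries, each below every wild-type and heterozygous library. The restored libraries held 13.9, 13.5 and 15.3 RPM, below every wild-type and heterozygous library and overlapping with null. These levels rest on 455 to 577 reads per *EZH2*-/- library.

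The fit across all genes (limma on log2(RPM + 0.1), with the Benjamini-Hochberg method over the 20608 genes that averaged 0.1 RPM or more) gave *EZH1* a log2 fold change of -1.34 (SE 0.21, adjusted p = 0.00065) in *EZH2*-/- against *EZH2*+/+ ESCs, which is 2.53-fold lower. Over 14 alternative settings the change lay between -1.53 and -1.18 and was called in all 14. Same-numbered libraries differed by -1.20, -1.94 and -0.88 on that log2 scale. Against *EZH2*-/+ ESCs the log2 fold change was -0.94 (SE 0.21, adjusted p = 0.0083). *EZH1* in *EZH2*-/-+*EZH2* against *EZH2*+/+ ESCs had a log2 fold change of -0.93 (SE 0.21, adjusted p = 0.015 in the same limma fit). That call was lost without wild-type replicate 2 (-0.79, adjusted p = 0.075), without restored replicate 1 (-0.91, adjusted p = 0.052) or without restored replicate 2 (-0.90, adjusted p = 0.063), and held under the other 11 of 14 alternatives, with adjusted p from 0.0039 to 0.075 over all. Between *EZH2*-/- and *EZH2*-/-+*EZH2* ESCs, which differ in DOX, the log2 difference of *EZH1* was -0.41 with a 95% interval of -0.86 to 0.05 (adjusted p = 0.35), and it did not pass. Its position on the list of all genes was not extreme: 6.07% of the gene names tested had a log2 fold change at or below it in *EZH2*-/- against *EZH2*+/+ ESCs.

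**Figure D1:**
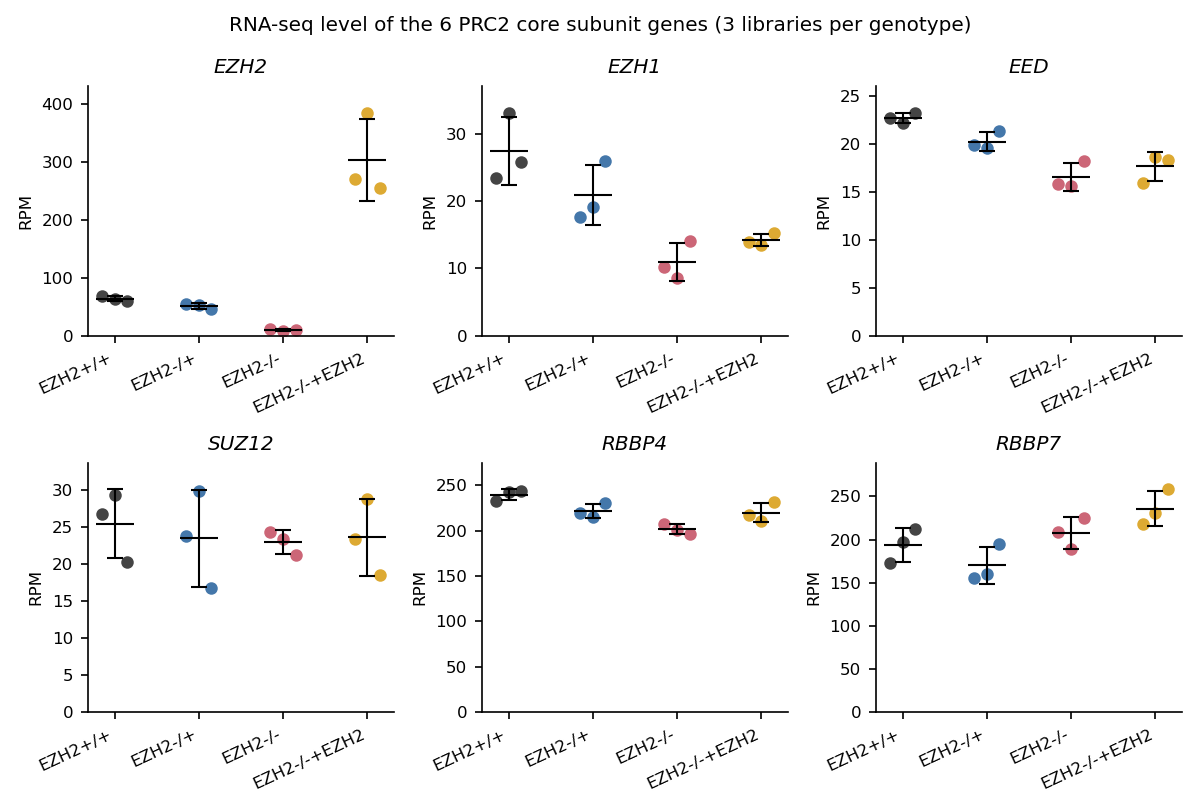
Levels of the 6 genes in RPM (vertical axis, from 0, a separate scale in each panel) by genotype, with 1 point per library and a bar for the mean ± SD of 3 libraries. *EZH1* lay between 23.4 and 33.1 RPM in wild-type and between 8.54 and 15.3 RPM in the null and restored libraries.

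The balance of the catalytic paralogs was compared per kb of merged exons (10.8 kb for *EZH2* and 6.99 kb for *EZH1*). *EZH1* made up 39.8% ± 5.12 (SD, n = 3) of the sum of *EZH1* and *EZH2* per kb in wild-type, 38.5% ± 7.21 in heterozygous and 62.3% ± 5.97 in null ESCs. The *EZH2*-/- libraries ranged from 57.6% to 69.1%, above the *EZH2*+/+ range of 34.5% to 44.7% (exact permutation test, two-sided, p = 0.1, the smallest p that 3 against 3 allows). *EZH2* was disrupted by design, which alone raises this share, so the test cannot speak to a change in *EZH1*. The sum itself went from 9.85 ± 0.707 RPM per kb in *EZH2*+/+ to 2.48 ± 0.440 in *EZH2*-/- ESCs. So *EZH1* held a larger share of a smaller sum, and its own level was lower. In *EZH2*-/-+*EZH2* ESCs the share was 6.96% ± 1.67 and the sum 30.2 ± 6.46 RPM per kb, computed with the length of the endogenous gene although the transgene holds the coding sequence alone. Per kb, *EZH1* in *EZH2*+/+ ESCs was at 3.93, *EED* at 3.25 and *SUZ12* at 3.88 RPM, while *EZH2* was at 5.92, *RBBP4* at 25.3 and *RBBP7* at 26.4 RPM. Shares and levels depend on the length used, as the longest *EZH2* transcript has 4.50 kb and that of *EZH1* 4.63 kb. With these lengths the *EZH1* share was 29.4% in wild-type and 51.2% in null ESCs, whose libraries ranged from 46.2% to 58.5%.

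*EED* was lower by less, and *SUZ12* was not detectably different. The study describes the transcripts of both genes as unchanged in *EZH2*-/- ESCs. *EED* (ENSG00000074266, chromosome 11, 86244544 to 86278813, plus strand) was at 22.7, 22.2 and 23.3 RPM in wild-type, 19.9, 19.6 and 21.4 in heterozygous, 15.8, 15.6 and 18.3 in null, and 16.0, 18.7 and 18.4 in restored libraries. Every null and restored library was below every wild-type and heterozygous library, which describes these libraries and is no test. Null against wild-type ESCs gave *EED* a log2 fold change of -0.46 (SE 0.13, adjusted p = 0.018 from limma), where the median over all genes was -0.13. It was called in 9 of 14 alternatives, with adjusted p from 0.0049 to 0.075. The call was lost with RPM rescaled by the median ratio (-0.35, adjusted p = 0.073) and without any 1 of wild-type replicate 1 (adjusted p = 0.053), wild-type replicate 3 (0.055), null replicate 1 (0.056) or null replicate 2 (0.075). In *EZH2*-/-+*EZH2* against *EZH2*+/+ ESCs it was -0.36 (adjusted p = 0.097, and 0.031 with library numbers blocked in limma, over 14 alternatives 0.031 to 0.33).

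*SUZ12* (ENSG00000178691, chromosome 17, 31937018 to 32001045, plus strand) was at 26.7, 29.2 and 20.2 RPM in *EZH2*+/+ and 24.3, 23.3 and 21.2 RPM in *EZH2*-/- libraries, which overlapped. It ranged from 16.8 to 29.8 RPM in *EZH2*-/+ and from 18.5 to 28.8 in *EZH2*-/-+*EZH2* libraries, so no neighbouring genotypes in the order of its means were apart. Its log2 fold change in *EZH2*-/- against *EZH2*+/+ ESCs was -0.13 with a 95% interval of -0.62 to 0.35 (adjusted p = 0.68 from limma). Of the 100-base stretches of *SUZ12* exons, 1.83% occur elsewhere in the genome, against 0% for *EZH2*, *EZH1* and *EED*, so a small part of its reads cannot be placed with certainty.

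The histone-binding subunits were the most abundant members per kb in *EZH2*+/+ ESCs, and neither was called in any comparison without the block. *RBBP4* (ENSG00000162521, chromosome 1, 32651142 to 32686211, plus strand) was at 233, 242 and 244 RPM in *EZH2*+/+, and at 207, 201 and 196 RPM in *EZH2*-/- libraries, which did not overlap. Its heterozygous libraries (214 to 230 RPM) and restored libraries (211 to 232 RPM) overlapped each other and lay below wild-type. The log2 fold change in *EZH2*-/- against *EZH2*+/+ ESCs was -0.25 (95% interval -0.48 to -0.02), with an adjusted p of 0.089 in limma, and of 0.028 with library numbers blocked (0.028 to 0.39 over 14 alternatives). *RBBP7* (ENSG00000102054, chromosome X, 16839283 to 16870414, minus strand) was at 173, 197 and 212 RPM in *EZH2*+/+ and 156, 160 and 195 RPM in *EZH2*-/+ libraries. It was at 209, 189 and 225 RPM in null and 218, 231 and 258 RPM in restored libraries, where only the restored libraries were all above wild-type. The log2 fold change of *RBBP7* was 0.10 (95% interval -0.20 to 0.40, adjusted p = 0.61 in limma) in null and 0.28 (adjusted p = 0.22, and 0.043 with the block) in restored against wild-type ESCs. Against heterozygous ESCs it was 0.29 in null (adjusted p = 0.17, and 0.028 with the block), with null above heterozygous in 3 of 3 same-numbered pairs. Counting ignored strand, and *RBBP7* overlaps *TXLNG* by 5237 bases and *RBBP4* overlaps *SYNC* by 5852. *TXLNG* was at a mean of 40.0 RPM in *EZH2*+/+ and 82.9 in *EZH2*-/- ESCs, so reads in the shared bases may belong to either gene. *RBBP7* made up 51.0% ± 2.02 of the sum of both genes per kb in wild-type, 57.0% ± 2.51 in null and 58.0% ± 1.31 in restored ESCs.

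Counted together, 3 of the 6 members (*EZH2*, *EZH1*, *EED*) were called in *EZH2*-/- against *EZH2*+/+ ESCs, all lower, where 18.8% of all genes tested were called lower, 12.6% higher and 31.4% in either direction. Against *EZH2*-/+ ESCs 2 were called (*EZH2*, *EZH1*; 8.25% of all genes lower, 10.3% higher, 18.5% in all), and against *EZH2*-/-+*EZH2* ESCs *EZH2* alone (0.524% lower, 2.63% higher, 3.15% in all). None was called in *EZH2*-/+ against *EZH2*+/+ ESCs in limma, nor had any an unadjusted p under 0.05 there, and 1.15% of all genes passed in that comparison, 0.18% higher and 0.966% lower. In *EZH2*-/-+*EZH2* against *EZH2*+/+ ESCs 2 were called, *EZH2* higher and *EZH1* lower (3.4% of all genes higher, 6.9% lower and 10.3% in all), and 4 with library numbers blocked (also *EED* lower and *RBBP7* higher, beside 22.4% of all genes). *EZH2* was disrupted, and in restored ESCs driven by a transgene, so its calls are fixed by design although these counts include it. Without *EZH2* and without the block, *EZH1* and *EED* were called in null against wild-type ESCs. *EZH1* alone was called in null against heterozygous and in restored against wild-type ESCs, and no member in null against restored ESCs. These comparisons share libraries, so they are not separate evidence.

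**Figure D2:**
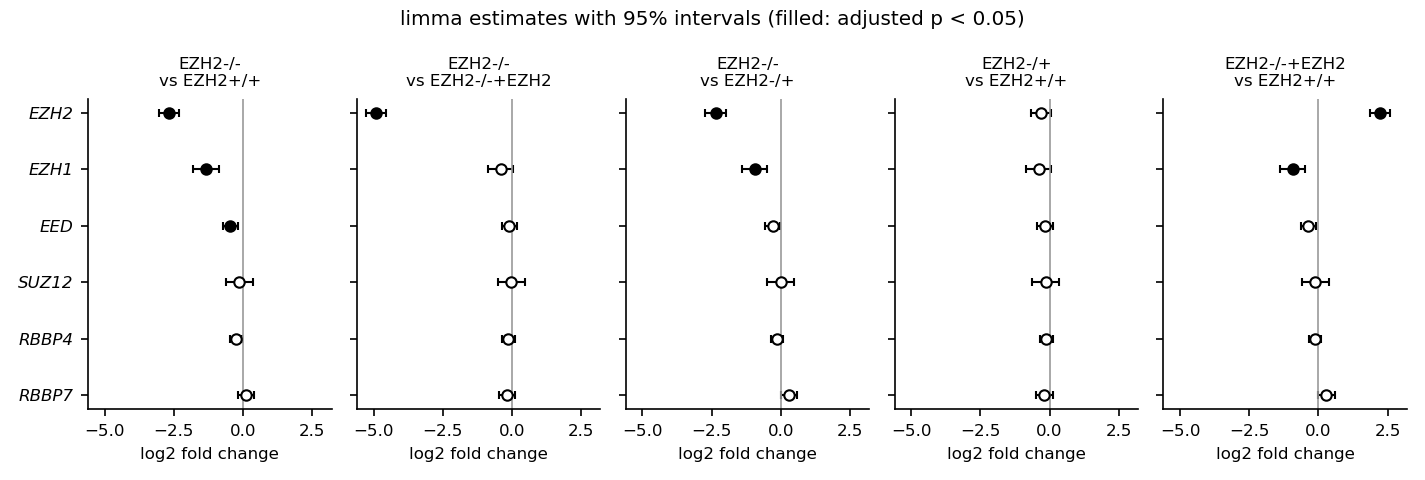
Log2 fold change (horizontal axis) with its 95% interval for each gene in the 5 comparisons, from limma, filled where the adjusted p over all genes is under 0.05. *EZH1* is filled in 3 comparisons and lies at -1.34 in *EZH2*-/- against *EZH2*+/+ ESCs, while the intervals of *SUZ12* contain 0 in all 5.

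At the members' own promoters, *EZH1* alone carried H3K27me3 above the level that the study's methods set for marked promoters (over 0.1 log2 RPKM with input under 0.1). The windows reach 2.5 kb either side of a start site, and the one with the most H3K4me3 in *EZH2*+/+ ESCs stands for each gene. *EZH1* passed in 8 of its 16 windows, all 8 within 0.034 kb of the same start, and the other members in none of 53. It passed narrowly, at 0.23 log2 RPKM. Of all 35683 gene names, 6237 had a window that passed, so a passing member is not unusual. *EZH1* H3K27me3 was 5.85 RPM in wild-type, 5.41 in heterozygous, 0.716 in null and 3.46 in restored ESCs. In *EZH2*+/+ ESCs that was more than at 84.9% of the promoters of all gene names, and 3.61 times the input in the same window. The log2 difference between *EZH2*-/- and *EZH2*+/+ ESCs was -2.87 on the log2(RPM + 0.1) scale, or 7.29-fold lower. The 95% exact interval for counting error was -3.79 to -2.32, for the log2 ratio of reads without the added 0.1. It rests on about 20 and 107 reads in 2 libraries each. On the log2(RPM + 0.1) scale restored ESCs were 4.36-fold above null (interval of the log2 ratio of null to restored, -3.02 to -1.55) and were still 1.67-fold below wild-type (-1.17 to -0.37). The steps between the lowest values of each histone column are those of an average over 2 libraries, fewer than the study describes. With 1 value per genotype no replicate check is possible, and the intervals cover counting error only. At *EZH1* starts 22.1 to 41.8 kb into the gene, H3K27me3 was 0.728 to 1.39 RPM in *EZH2*+/+ ESCs.

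The other 5 promoters had 1.23 to 1.70 RPM of H3K27me3 in *EZH2*+/+ ESCs, where the median of all promoters was 1.83 RPM. One member promoter of 6 was thus lower by at least 2-fold in *EZH2*-/- against *EZH2*+/+ ESCs, and 45.2% of all promoters were, with 3.84% higher. The log2 difference at *EED* was -0.75 with a counting interval of -1.78 to 0.14, and those of *EZH2* (-0.36), *RBBP7* (-0.24), *RBBP4* (0.03) and *SUZ12* (0.06) also had intervals that contain 0. The median over all promoters was -0.85. EZH2 occupancy in *EZH2*+/+ ESCs at the *EZH1* promoter was 0.494 RPM, higher than at 66.2% of all promoters but the lowest of the 6 members. It was 0.665 RPM at *RBBP7*, 0.708 at *EED*, 0.719 at *RBBP4*, 1.04 at *EZH2* and 1.09 at *SUZ12*, whose promoters did not pass the H3K27me3 rule. This column holds 1 library.

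*EZH1* lies beside promoters with more of the mark. Of the gene names with a promoter window within 50 kb, *RAMP2*, which encodes a receptor activity-modifying protein, begins 16.2 kb upstream of *EZH1* and had 14.6 RPM of H3K27me3 in wild-type, 0.383 in null and 10.2 in restored ESCs. *WNK4*, a kinase gene 35.7 kb upstream, had 15.4, 0.709 and 13.2 RPM. CTD-3193K9.11, which begins 6.70 kb from *EZH1* on the same side, had 2.75 RPM in wild-type and 0.635 in null ESCs, and the window on the other side, CTD-3193K9.3, had 1.18 and 0.458 RPM. Between *RAMP2* and *WNK4*, *VPS25* had 1.14 RPM in *EZH2*+/+ ESCs, so the mark was not continuous over these windows. None of these windows overlaps that of *EZH1*. At *EZH1* both the mark and the RNA were lower. The rule, as applied here to every gene name, kept a larger set than the study describes. Among 4265 gene names with a promoter that passed the same rule and RNA that was tested, 19.6% were called higher and 18.8% lower in *EZH2*-/- against *EZH2*+/+ ESCs, beside 10.8% and 18.8% of 16296 others. Of those 4265, 10.4% had a log2 fold change at or below that of *EZH1*.

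Against *EZH2*+/+ ESCs, no active mark at *EZH1* was lower in *EZH2*-/- ESCs beyond counting error. H3K4me3 there was 4.76 RPM in wild-type, 10.6 in heterozygous, 6.95 in null and 7.18 in restored ESCs, H3K27ac 2.38, 3.04, 3.21 and 2.85 RPM, and H3K4me1 3.48, 3.47, 3.92 and 3.90 RPM. The counting intervals of the *EZH2*-/- to *EZH2*+/+ differences contain 0 for all 3 marks (H3K4me3 -0.02 to 1.13, H3K27ac -0.13 to 0.98, H3K4me1 -0.28 to 0.61 on the log2 scale). Against *EZH2*-/+ ESCs H3K4me3 was lower in *EZH2*-/- ESCs, by a log2 difference of -0.60 (-0.91 to -0.31, from 144 and 261 reads), while the intervals of H3K27ac and H3K4me1 contain 0. Median H3K4me3 over all promoters was also lower, at 5.34 RPM in null and 6.71 RPM in heterozygous ESCs. Input in the *EZH1* window was higher in null than in heterozygous ESCs, by a log2 difference of 0.56 (0.06 to 1.13, from 68 and 56 reads). *EZH1* had the lowest H3K4me3 of the 6 members in every genotype. The other members had 7.17 to 14.3 RPM in *EZH2*+/+ ESCs, where this column holds about 3.43 M reads per library and those of the other genotypes about 10.3 to 17.4 M reads.

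At the *SUZ12* promoter H3K4me3 was 7.17 RPM in wild-type, 15.0 in heterozygous, 14.6 in null and 12.3 in restored ESCs, and H3K27ac 2.02, 2.91, 4.09 and 2.84 RPM. The log2 difference between *EZH2*-/- and *EZH2*+/+ ESCs was 1.01 for H3K4me3 (counting interval 0.59 to 1.49, from 49 reads in *EZH2*+/+) and 0.98 for H3K27ac (0.46 to 1.56), while its RNA did not differ detectably. It was the 1 member of 6 at 2-fold in H3K4me3, beside 2.41% of all promoters higher and 12.2% lower. With a pseudocount of 1 RPM no member reached 2-fold. Heterozygous against wild-type ESCs differed as much at *SUZ12*, by 1.05 (0.63 to 1.53). At *SUZ12* windows away from the promoter, H3K4me3 was 1.57 to 1.77 RPM in wild-type and 0.82 to 0.89 in null ESCs. At those of *EZH1* it was 1.65 to 3.45 and 0.44 to 0.89 RPM, while the ranges overlapped at *EED* and *RBBP7*. The part of this background in the H3K4me3 differences of any member was not tested.

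*RBBP7* had more of every active mark in *EZH2*-/- ESCs, and so did its chromosome. H3K27ac at its promoter was 2.77 RPM in wild-type, 4.57 in heterozygous, 6.70 in null and 5.55 in restored ESCs, and H3K4me1 2.64, 3.74, 6.85 and 5.48 RPM. The log2 differences between *EZH2*-/- and *EZH2*+/+ ESCs were 1.25 (counting interval 0.83 to 1.73) for H3K27ac and 1.34 (0.94 to 1.82) for H3K4me1. It was the only member of 6 past 2-fold in either, beside 9.34% of all promoters higher and 2.95% lower in H3K27ac, and 2.3% higher and 3.71% lower in H3K4me1. Centred on the median change over all promoters, H3K27ac no longer reached 2-fold. H3K4me3 differed by 0.84 (0.54 to 1.17). Input chromatin in the same window was 1.18 RPM in *EZH2*+/+ and 1.94 in *EZH2*-/- ESCs, a log2 difference of 0.67 (0.19 to 1.26). That is 1.60-fold, short of the 2-fold difference in input that 0.238% of all promoters reached. Over the 1100 promoters of chromosome X the median input difference was 0.61 in null and 0.56 in restored but 0.08 in heterozygous ESCs, while the medians of the 22 autosomes in null ESCs lay between -0.09 and 0.03. The X medians of the *EZH2*-/- to *EZH2*+/+ log2 differences were 1.10 for H3K27ac, 0.92 for H3K4me1 and 0.51 for H3K4me3, and that of H3K27me3 was 0.26, against -0.24 at *RBBP7*. The part of input in the differences at *RBBP7* was not tested beyond these values. RNA of the 711 X genes tested had a median log2 fold change of 0.72 in null and 0.51 in restored against wild-type ESCs, and the 50 genes within 5 Mb of *RBBP7* had 0.68 and 0.52. *RBBP7* RNA, at 0.10 and 0.28, stood below those medians. Around the other members the median input difference of *EZH2*-/- against *EZH2*+/+ ESCs within 5 Mb was between -0.08 and 0.04, so no such regional shift in input was seen around *EZH1* or *EED*. In their own promoter windows this input difference was 0.23 (-0.25 to 0.73) at *EZH1* and 0.14 (-0.35 to 0.67) at *EED*. Median RNA differences from wild-type ESCs within 5 Mb of *EZH1* were -0.17 in null and -0.32 in restored ESCs. Around *EED* they were -0.20 and -0.23, beside -0.13 and -0.15 over all genes, and the part of the region in either gene was not tested.

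The genes around PRC2 gave a mixed picture. Of 9 accessory subunit genes 8 were tested, and in *EZH2*-/- against *EZH2*+/+ ESCs 2 were called lower, beside 18.8% of all genes, and none higher, with a median log2 fold change of -0.39 beside -0.13 over all genes. *MTF2*, which brings PRC2 to CpG-rich DNA, fell from 52.7 ± 5.08 to 36.9 ± 3.82 RPM (-0.51, adjusted p = 0.017 in limma), and *C17orf96*, which encodes EPOP, from 36.3 ± 8.27 to 20.5 ± 8.87 RPM (-0.88, adjusted p = 0.037). The *MTF2* call held in 10 of 14 alternatives (adjusted p 0.0081 to 0.077) and that of *C17orf96* in 9 of 14 (0.0021 to 0.15), and median-ratio scaling ended both. *JARID2*, a DNA-binding partner, was at 126 ± 6.86 and 177 ± 27.04 RPM (0.48, adjusted p = 0.068 in limma, and 0.00396 with the block). With the block 5 were called, beside 45.3% of all genes, as *LCOR* (-0.71) and *C10orf12* (-0.47) also passed with adjusted p of 0.00621 and 0.0461. *AEBP2* (-0.31), *PHF1* (-0.32) and *PHF19* (-0.06) did not pass, and *CXorf67* was under the filter. None of the 8 was called between *EZH2*-/- and *EZH2*-/-+*EZH2* ESCs, and 1 with the block, beside 9.4% of all genes.

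Among 4 genes for H3K27 demethylases and acetyltransferases, *KDM6A*, an X-linked demethylase of H3K27, was the one called in *EZH2*-/- against *EZH2*+/+ ESCs, beside 12.6% of all genes called higher. It rose from 24.2 ± 5.203 to 59.3 ± 15.5 RPM (1.28, adjusted p = 0.0042 in limma), beside the X median of 0.72, and stood at 50.2 ± 16.1 RPM in *EZH2*-/-+*EZH2* ESCs. Of 16 genes for other complexes that hold RBBP4 or RBBP7, 4 were called lower, beside 18.8% of all genes, and none higher. They were *GATAD2B* (-1.02) and *MTA1* (-0.39) of NuRD, *CHAF1B* (-0.63) of CAF-1 and *SIN3A* (-0.49). Of 14 alternatives, *GATAD2B* was called in 14, *CHAF1B* in 13, *SIN3A* in 12 and *MTA1* in 8. None of the 16 was called between *EZH2*-/- and *EZH2*-/-+*EZH2* ESCs. With the block 8 and 3 of the 16 were called in these comparisons, beside 45.3% and 9.4% of all genes. Of 16 genes of cycling cells, 4 were called lower in null against wild-type ESCs, beside 18.8% of all genes, *TYMS* (-0.99), *TOP2A* (-0.91), *BUB1* (-0.86) and *CDK1* (-0.55). Against restored ESCs *TYMS* (-0.71) and *BUB1* (-0.79) were also called lower, beside 0.524% of all genes. *TYMS*, *TOP2A* and *BUB1* were called in all 14 alternatives against *EZH2*+/+ ESCs, *CDK1* in 6, and against *EZH2*-/-+*EZH2* ESCs *TYMS* in 9 and *BUB1* in 12. With the block 7 of the 16 were called against *EZH2*+/+ ESCs, beside 45.3% of all genes. Their summed level was 2480 to 2801 RPM in wild-type, 1946 to 2217 in null and 2298 to 2464 in restored libraries, and its part in the *EZH1* and *EED* values was not tested.

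Finally, the genes most like each member over the 12 libraries were listed by Pearson's r of log2(RPM + 0.1), among 15498 other genes averaging 1 RPM or more. The libraries fall into 4 genotypes, so these values describe shared levels across genotypes and carry no p. *EZH1* was closest to RP11-196G11.3 (r = 0.98), *C2orf81* (0.98) and *KCNJ11* (0.98), and *EED* to *SEPTIN4* (0.98), *UBE2L6* (0.96) and *OTUB2* (0.96). *RBBP4* was closest to *RNF146* (0.98), *CDC42SE2* (0.98) and *ARGLU1* (0.98). The 3 nearest to *RBBP7*, GS1-358P8.4 (0.95), *CMC4* (0.95) and *MTCP1* (0.94), all lie on chromosome X. *SUZ12* was closest to *DDHD1* (0.95), *CCDC82* (0.94) and *DNM1L* (0.94). *EZH2*, whose level is set by the transgene in *EZH2*-/-+*EZH2* ESCs, had its nearest gene, *ACTR3C*, at 0.87. Among the members themselves *EZH1* and *EED* were the most alike (r = 0.92), *EZH1* and *RBBP4* stood at 0.83, *EED* and *RBBP4* at 0.77, and *EZH2* and *EZH1* at 0.28.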

How the data were processed

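RNA-seq (3 libraries per genotype) and ChIP-seq tables were analysed. For RNA, the authors trimmed reads (Trim Galore 0.4.0), aligned them to GRCh38 with TopHat2 2.0.12 and counted them over genes without regard to strand, and deposited log2 RPM. A gene without reads is at 0.9 of 1 read and was set to 0. For ChIP, the authors aligned with Bowtie2 2.2.5 and deposited log2 RPM of non-duplicated reads. The study describes ChIP data as averages of 3 replicates, but steps between low values are those of 2 libraries per histone column, and read counts and intervals here use 2.

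Members and gene lists were chosen with earlier results of these data known. Tests used limma 3.58.1 in R 4.3.3 (lmFit, eBayes with trend) on log2(RPM + 0.1) over 12 libraries, calling an adjusted p under 0.05, and this scale understates changes of low genes. The study calls the 3 RNA libraries per line biological replicates, and the labels do not say what was repeated, so p-values measure the spread between these libraries. The library number pairs samples, as 18 of 18 same-numbered pairs deviated together (r over 0.1). Repeated names used the row with the highest mean. Overlap between the libraries of genotypes is described for single genes, with no test and no share over all genes. From each list up to 4 called genes with the largest change, all accessory genes and the 3 genes most like each member were named. The fit was tested on simulated data that held no pairing of libraries. Without the block it called 47% of changes of 1 and 96% of changes of 2 on the log2 scale. With the block it called 42% and 94%, so a change that did not pass may have been missed. ChIP differences of log2(RPM + 0.1) carry no test, and their intervals are for the log2 ratio of reads without the added 0.1. Lengths and repeated stretches came from GENCODE release 44. The alternatives were other pseudocounts, filters, scaling, limma-voom, a replicate block and leaving out libraries. RNA libraries held 16587860 to 36589089 reads on genes, recovered from the steps of the RPM values, of which 100% under 1000 reads were whole within 0.02, and ChIP intervals cover counting error only.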

Additional observations from a re-analysis of the deposited data

How the results depend on the processing

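The counts of members called include *EZH2*, whose calls are fixed by design. With each replicate left out in turn, the number of members called lay between 2 and 3 in *EZH2*-/- against *EZH2*+/+, at 1 against *EZH2*-/-+*EZH2* ESCs, at 2 against *EZH2*-/+ ESCs, at 0 in *EZH2*-/+ against *EZH2*+/+ and between 1 and 2 in *EZH2*-/-+*EZH2* against *EZH2*+/+ ESCs. With the replicate block 4 members were called in *EZH2*-/-+*EZH2* against *EZH2*+/+ ESCs in place of 2, and among the genes named with their values, pairing changed no call other than those of *EED*, *RBBP4*, *RBBP7*, *JARID2*, *LCOR* and *C10orf12*. It raised the counts of the gene lists given in the report. The *EZH1* share of the catalytic pair, 22.6 percentage points higher in *EZH2*-/- than in *EZH2*+/+ ESCs, was 21.9 points higher without a length correction and 21.7 with the longest transcript, and 19.2 to 25.05 points higher with a replicate left out. The count of promoters changed at least 2-fold went from 1 to 0 with the first listed window for H3K27me3, H3K27ac and H3K4me1, where the *RBBP7* H3K4me1 difference turned to -0.21. It also went from 1 to 0 with a pseudocount of 1 RPM for H3K4me3, and with centring on the median change for H3K27ac. Differences near 0 turned sign. With a replicate left out, *SUZ12* lay between -0.18 and 0.14 in *EZH2*-/- against *EZH2*-/-+*EZH2* ESCs, between -0.22 and 0.20 in *EZH2*-/- against *EZH2*-/+, between -0.33 and 0.085 in *EZH2*-/+ against *EZH2*+/+ and between -0.27 and 0.047 in *EZH2*-/-+*EZH2* against *EZH2*+/+ ESCs, and *PHF19* between -0.097 and 0.021 in *EZH2*-/- against *EZH2*+/+ ESCs. With median-ratio scaling *SUZ12* (0.013) and *RBBP4* (0.0016) turned in *EZH2*-/-+*EZH2* against *EZH2*+/+ ESCs, and *PHF19* (0.054) in *EZH2*-/- against *EZH2*+/+ ESCs. None of these passed the test. First-listed windows lie inside some genes, away from the promoter. Promoter counts of 19 to 129 reads limit what H3K27me3 can resolve, and the depth and background of H3K4me3 in *EZH2*+/+ ESCs limit that mark.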
